A study of Drosophila melanogaster with 35 samples.

Results

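Among the genes spotted on a Drosophila melanogaster cDNA array are many whose symbol is a computed gene number, a CG symbol, rather than a given name. The genes described here are those CG-numbered genes with a spotted clone from the adult head cDNA libraries GH or HL. A gene was taken when at least 1 of its rows carried a GH or HL clone number and named exactly 1 gene. It was left out when another of its rows came from the testis (AT), ovary (GM) or larval-pupal (LP) library. Of 640 CG-numbered genes with a GH or HL row, 4 were left out, which gave 636 head-clone genes among 2806 CG-numbered genes and 7258 genes with a symbol. Of the 636, 17 also had a row of another library, and all rows of a gene were averaged. The other 2170 CG-numbered genes were the comparison. The rule itself used clone names and symbols and no measured value, but it was set with earlier results of these data known.

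All cells were Kc167, an embryonic cell line of Drosophila melanogaster, and the DamID cells were transfected with a plasmid for Dam alone or for a Dam fusion (full-length Lam was cloned in the plasmid pNDamMyc). In DamID, a protein fused to the bacterial DNA adenine methyltransferase Dam leaves methyl marks on DNA close to where it binds, and the marked DNA is set against that of cells with Dam alone. The groups used were Dam-Lam over Dam (4 arrays), Dam-Lam delta CaaX over Dam (4 arrays), and 5 pairs of dye-swapped arrays from cells kept with or without trichostatin A (TSA, which blocks histone deacetylases, at 100 nM for 24 h). Those pairs were Dam-Lam with over without TSA, Dam-Lam delta CaaX with over without TSA, Dam with over without TSA, Dam-Lam over Dam both with TSA, and Dam-Lam delta CaaX over Dam both with TSA. mRNA of cells with over without ecdysone, the steroid hormone of moulting, was measured on 5 arrays, and mRNA of untreated cells over genomic DNA on 2 arrays. The dose and time of the hormone are not stated for the mRNA arrays. Another 10 DamID arrays, from an experiment with ecdysone, enter no comparison here, since the direction of their Lam ratios could not be settled. Whether replicate arrays stand for independent cultures is not in the labels, and p-values therefore measure only how the arrays vary, which may be technical. Values are log ratios, taken as log2 of the first channel over the second after each array was centred on its median, since neither the base nor the direction is given in the sources used here. Arrays of opposite dye correlated positively in the untreated DamID groups, with r from 0.59 to 0.78 over all units for Lam and from 0.42 to 0.55 for Lam delta CaaX. The TSA pairs had r from 0.44 to 0.91 and the 2 arrays of mRNA over genomic DNA 0.95. In the ecdysone mRNA group, arrays of opposite dye had r from -0.13 (arrays 3426 and 3427) to 0.45. The check of direction thus did not hold for every pair of that group.

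Lam is the B-type lamin of Drosophila, a filament protein that lines the inside of the nuclear membrane. Its C-terminal CaaX signal is modified with a lipid and brings the protein to the membrane, and Lam delta CaaX lacks it. Genes in contact with the lamina are in general little transcribed, and many of them are active only in particular tissues or stages. A cDNA clone from a head library shows that its gene is transcribed in the adult head, but not that it is transcribed only there. The reference gene table names 603 of the 636 head-clone genes by gene number, all of them protein coding. For 122 it also lists another name, in some cases only a clone label.

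Markers of blood cells and of the head were looked up in the mRNA of the cell line. Of 15 measured hemocyte markers 9 had an mRNA level above 0, that is above the median row of the array, led by Hml at 4.24 and 4.75, LanB1 at 3.57 and 4.18 and SPARC at 3.49 and 3.77 on the log2 scale, while 6 were at or below 0, with NimC1 at -2.25 and PPO1 at -2.37 on average. Of 12 measured markers of neurons, eye and glia 1 was above 0, nrv2 at 0.81, and the median of the 12 was -1.47. A value was held by 7542 to 8485 rows an array, and 572 head-clone genes had a value in every comparison.

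In untreated cells the head-clone genes lay higher in Dam-Lam over Dam than the other CG-numbered genes. The median head-clone gene had log2 ratios of 0.18, 0.23, 0.23 and 0.16 on arrays 2907, 2921, 2945 and 2955, against 0.06, 0.08, 0.00 and 0.07 for the other CG-numbered genes. The head-clone median was above the other median on 4 of 4 arrays, by 0.15 ± 0.06 (SD, n = 4). Of 612 head-clone genes with values on at least 3 arrays, 199 were called higher with Lam than with Dam (32.5%) and 60 lower (9.8%), at an adjusted p under 0.05. Over all 8062 units tested, 20.3% were called higher and 14.9% lower. Among the other CG-numbered genes 467 of 2080 were higher (22.5%) and 276 lower (13.3%). Among the 612 head-clone genes, 79 were called higher and 3 lower by at least 2-fold. The counts were 144 and 26 among the 2080 other CG-numbered genes, and 515 and 103 among all 8062 units.

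The calls depended on single arrays more than the medians did. Without array 2921, limma called 0 head-clone genes in either direction, while an unadjusted p under 0.05 was reached by 162 in the higher and 41 in the lower direction. Leaving out array 2907 gave 37 and 1 calls, array 2955 240 and 104, and array 2945 230 and 90. The head-clone median stayed above that of the other CG-numbered genes with each array left out, by 0.10 to 0.17. A count by sign, with no fit, ran the same way: 235 of 578 head-clone genes with 4 values were above 0 on all 4 arrays (40.7%) and 110 below (19%), against 661 (32.9%) and 501 (24.9%) of 2011 other CG-numbered genes, and 29.3% and 28.1% of all units.

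**Figure D1:**
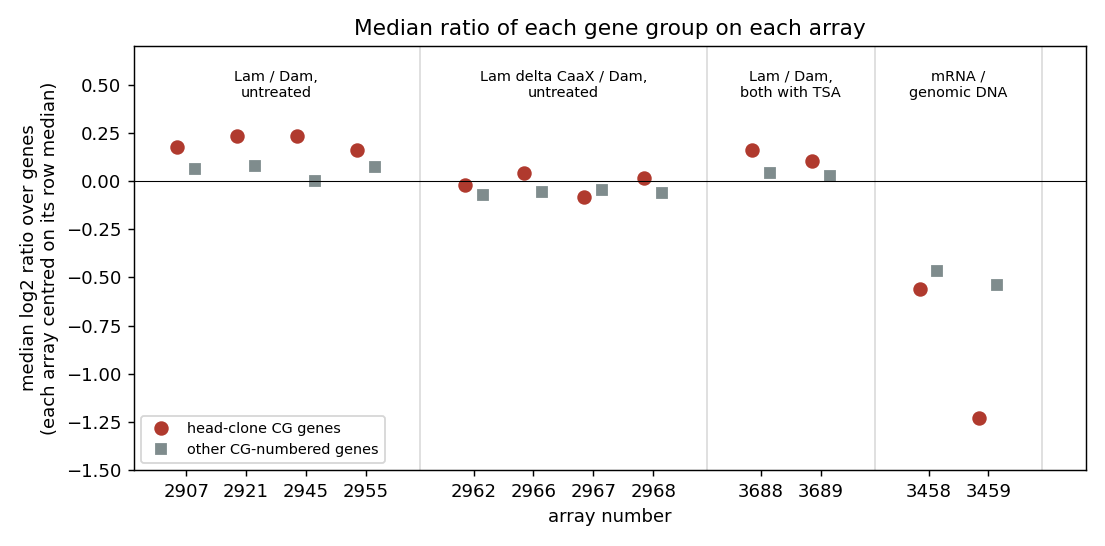
Median log2 ratio of the head-clone CG genes (red circles) and of the other CG-numbered genes (grey squares) on each array, with the array number on the x axis. The red circles lie above the grey squares on the 4 Lam arrays and on both Lam arrays with TSA, and on 3 of the 4 Lam delta CaaX arrays; on the mRNA arrays the gap is 0.09 on array 3458 and 0.69 on array 3459, with the red circle lower.

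The gene with the highest ratio was CG10750. Its log2 ratios were 1.44, 1.68, 5.69 and 2.04 on arrays 2907, 2921, 2945 and 2955, with a fitted mean of 2.71 (SE 0.51, adjusted p = 0.0105). Array 2945 alone was far above the others, and the lowest of the 4 values was still over 1. CG6614 had 2.29, 2.04, 2.53 and 1.86 on the same arrays, with a mean of 2.18 (SE 0.16, adjusted p = 0.00201). Its arrays differed by less than 1, as did those of CG1889 (2.24, 1.98, 1.59 and 1.43) and CG31872 (1.72, 1.46, 1.61 and 2.17).

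CG3330 had 2.24, 1.96, 2.46 and 1.46, a mean of 2.03 (SE 0.19, adjusted p = 0.00249), and all arrays lay above 1. CG4983 had 1.53, 1.96, 3.30 and 1.52, and CG3092 had 1.85, 1.45, 2.59 and 1.32, with array 2945 the highest in both. The same array was far above the rest in CG3492 (0.96, 1.53, 4.40 and 1.14), in CG5565 (1.30, 1.53, 3.27 and 1.61) and in CG7342 (1.38, 0.94, 3.82 and 0.89). These 10 genes were called higher with adjusted p-values between 0.00201 and 0.022. Without array 2921 the calls of all 10 were lost (adjusted p of 0.0522 for CG6614 and 0.13 for CG3492), and without array 2907 those of CG10750, CG3092, CG3492, CG5565 and CG7342 (adjusted p from 0.0503 for CG3092 to 0.127 for CG7342).

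Few head-clone genes were far below Dam. CG7029 had -0.53, -2.81 and -4.68 on arrays 2907, 2921 and 2945 and no value on array 2955, and its fit on 3 arrays gave -3.18 (SE 0.45, adjusted p = 0.0064). Those 3 values span a range of over 4 log2 units, so its size is poorly fixed. The next genes were closer to 0. CG8475 had -0.79, -1.17, -1.35 and -0.92, and CG10151 had -0.79, -1.15, -1.15 and -1.12. CG8728, which the gene table also lists as alpha-MPP, the alpha subunit of the peptidase that trims proteins on their way into mitochondria, had -1.15, -0.95, -0.36 and -1.0. The others of the 10 lowest were CG9674, CG11695, CG14956, CG4291, CG18628 and CG6654, with fitted means between -0.99 and -0.84. Array 2945 again stood apart in CG18628, with -1.96 against -0.63, -0.55 and -0.47. Without array 2907, CG11695 alone of these 10 kept its call, and without array 2921 none did, while CG7029 and CG9674 then had too few arrays for a test.

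**Figure D2:**
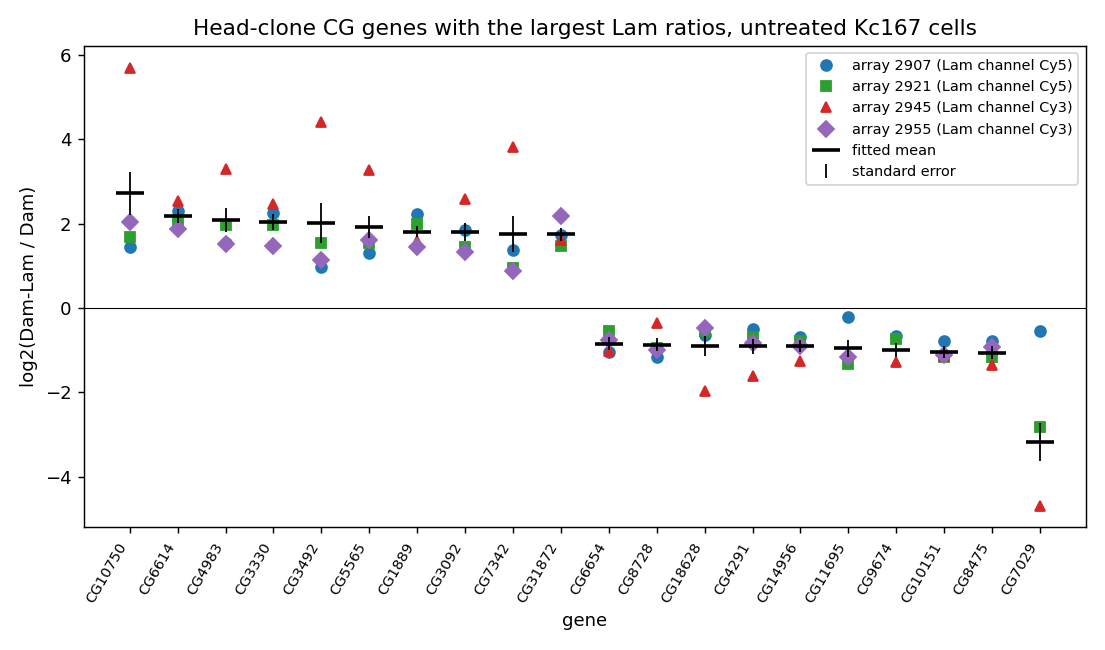
Log2 ratio of Dam-Lam over Dam on each of 4 arrays for the 10 highest and the 10 lowest head-clone genes by the fitted mean (black bars, with standard errors); colours and shapes mark the arrays. Array 2945 (red triangles) is farthest from 0 in all the high genes but CG1889 and CG31872, and in CG7029, CG8475, CG9674, CG14956, CG4291 and CG18628 among the low ones.

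The same Lam ratio was set out by library and by name. Genes with a given name and a GH or HL row had a median of 0.13 in Dam-Lam over Dam, with 254 of 938 called higher (27.1%). Named genes without such a row had a median of -0.12, with 506 of 3340 higher (15.1%). Among the other CG-numbered genes, those with rows of the embryonic library LD alone had a median of -0.18, with 47 of 490 higher (9.59%). Those of RE alone, also an embryonic library, had 0.09 with 136 of 554 higher (24.5%), and those of SD alone, from a cell line, -0.04 with 23 of 133 (17.3%). Those with rows of RH alone, a later head library that the choice of genes did not use, had a median of 0.05, with 27 of 164 higher (16.5%). The CG-numbered genes of testis clones had a median of 0.33, with 164 of 432 higher (38%), those of larval-pupal clones 0.25 with 52 of 146 (35.6%), and those of ovary clones -0.15 with 7 of 112 (6.25%). Differences between libraries were not tested, since genes are not replicates. Within the head-clone genes, the 25 measured with an HL row had a median of 0.26 and the 588 with a GH row 0.18. Some of them, such as CG42541 and CG10494, had Lam values only from a row of another library.

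With Lam delta CaaX the shares called among head-clone genes lay near those of all units. Their median in Dam-Lam delta CaaX over Dam was -0.02, 0.04, -0.08 and 0.02 on arrays 2962, 2966, 2967 and 2968, against -0.07, -0.06, -0.05 and -0.06 for the other CG-numbered genes. On array 2967 the head-clone median was the lower of the 2. Of 612 head-clone genes tested, 100 were called higher (16.3%) and 96 lower (15.7%), near the 16.1% and 16.4% of all 8056 units. Of 2081 other CG-numbered genes, 258 were higher (12.4%) and 413 lower (19.8%). Without array 2967 the calls among head-clone genes were 38 and 27, and without array 2968 36 and 38.

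CG32066 had the highest ratio with Lam delta CaaX, at 1.40, 1.35, 1.23 and 0.86, with a mean of 1.21 (SE 0.13, adjusted p = 0.000629). CG2540 followed with 0.73, 1.38, 0.80 and 1.43 (mean 1.09, adjusted p = 0.00279). Both lay above 0.7 on every array. CG8501, CG5355, CG17472, CG18178, CG14933, CG32095, CG10512 and CG31207 had means between 0.78 and 0.93. Of these, CG32095 rested most on a single array, with 1.99, 0.74, 0.58 and 0.13.

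The lowest gene with Lam delta CaaX was CG3104, with -2.93, -3.05, -2.54 and -2.73 and a mean of -2.81 (SE 0.12, adjusted p = 1.89e-06). All 4 arrays were within 0.6 of each other. Its clone is among 3 of the head-clone genes whose spots were made from re-amplified DNA only, a kind of row with a median of -0.26 in this comparison over 217 units. CG16904 had -1.49, -1.99, -1.61 and -1.35, and CG33143 had -1.75, -1.64, -1.37 and -1.36. Both were below -1 on every array, and CG43755 (-1.95, -0.85, -0.56 and -0.50) and CG10226 (-1.37, -1.34, -0.56 and -0.58) were less even. CG9109, CG3328, CG30350, CG7214 and CG15281 had means between -0.89 and -0.85. CG9109 is listed in the gene table under a name of the core 1 galactosyltransferases, enzymes that extend sugars on secreted proteins.

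**Figure D3:**
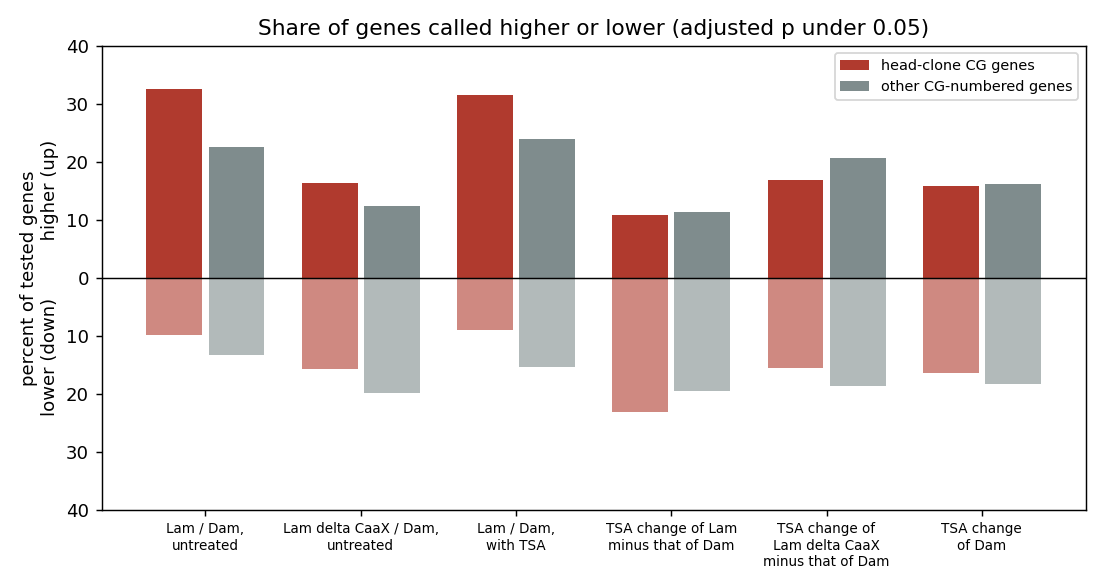
Percent of tested genes called higher (bars up) or lower (paler bars down) at an adjusted p under 0.05 in 6 comparisons, for head-clone CG genes (red, left) and other CG-numbered genes (grey, right). In Lam over Dam 32.5% of head-clone genes and 22.5% of other CG-numbered genes were higher without TSA, and 31.6% and 23.9% with TSA.

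Set against each other on the 8 arrays, Lam exceeded Lam delta CaaX in 174 of 589 head-clone genes tested (29.5%) and was below it in 55 (9.34%), against 21.1% and 14.1% of all 7711 units. Of 1991 other CG-numbered genes, 507 were higher (25.5%) and 225 lower (11.3%). The 6 genes with the largest positive differences were CG10750 at 3.12 (SE 0.65), CG6614 at 2.60, CG7084 at 2.41, CG10752 at 2.40, CG4983 at 2.34 and CG3492 at 2.31. The 6 with the largest negative differences were CG2540 at -1.45 (SE 0.22), CG9674 at -1.41, CG8475 at -1.25, CG11999 at -1.22, CG7148 at -1.20 and CG32095 at -1.19. CG7148 also has the name FBXL12 in the gene table, that of an F-box protein, the part of a ubiquitin ligase that picks its targets. CG32095 was not called when array 2962 was left out (adjusted p = 0.14) or any of 5 other arrays, and CG3492 without array 2967 (0.0522) or 2968 (0.0502). The count of lower genes was 35 without array 2921 and 36 without array 2967.

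Some head-clone genes were called in opposite directions with the 2 proteins, about as often as other genes. Of 194 higher with Lam and tested with both, 39 were lower with Lam delta CaaX (20.1%), against 22.7% of all units higher with Lam. The labels do not say whether the Dam DNA of both sets of arrays was the same sample, so their values are given side by side. CG7084 had 1.30, 0.95, 3.06 and 1.02 with Lam and -1.36, -0.90, -0.91 and -0.14 with Lam delta CaaX, so that the arrays of the 2 proteins did not overlap. CG10752 had 2.29, 1.53, 1.74 and 1.39 with Lam and -0.87, -0.61, -0.77 and -0.42 with Lam delta CaaX, again apart on every array. Both genes were named for their opposite calls, so this separation follows largely from the choice. CG8501 was high with both proteins, at 0.97, 1.77, 0.76 and 1.51 with Lam and 0.60, 1.47, 0.83 and 0.84 with Lam delta CaaX. So was CG8343, at 1.45, 1.06, 2.43 and 0.96 with Lam and 0.29, 0.86, 0.36 and 0.30 with Lam delta CaaX. CG17472 and CG11400 were the other leading genes called higher with both.

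Genes low with both proteins were led by CG16904, at -0.44, -0.89, -0.24 and -1.18 with Lam, followed by CG10151, CG9109 and CG31231. The 4 genes lower with Lam and higher with Lam delta CaaX were CG9674, CG11999, CG6230 and CG10286. They are 8% of the 50 head-clone genes lower with Lam and tested with both, against 5.63% of all such units. CG9674 had -0.67, -0.73 and -1.28 on 3 arrays with Lam and -0.02, 0.62, 0.69 and 0.76 with Lam delta CaaX. CG11999 was uneven, with 0.08, -0.87, -0.64 and -1.61 with Lam and 1.17, 1.03, -0.24 and -0.11 with Lam delta CaaX.

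In cells kept with TSA, Lam over Dam was measured on separate arrays, and the head-clone genes again lay higher. Their median was 0.16 and 0.10 on arrays 3688 and 3689, against 0.04 and 0.03 for the other CG-numbered genes. Of 614 head-clone genes tested, 194 were called higher (31.6%) and 55 lower (8.96%), against 19.5% and 14.6% of all 7089 units. The higher share was that of GH clones, with 191 of 591 genes higher (32.3%), 52 lower (8.8%) and a median of 0.13. Of the 24 genes with an HL row, 3 were higher and 3 lower (12.5% each), with a median of 0.02. Among other CG-numbered genes 412 of 1726 were higher (23.9%) and 265 lower (15.4%). Of these, the testis-clone genes had 149 of 297 higher (50.2%), the larval-pupal ones 55 of 141 (39%) and the ovary ones 6 of 106 (5.66%). The TSA arrays hold values for 7542 rows, fewer than the untreated arrays, so that only 297 of 449 testis-clone genes were tested. The calls needed both arrays: leaving out array 3688 gave 41 and 3 calls, and array 3689 50 and 5.

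A gene high in untreated cells was mostly high with TSA as well. Of 195 head-clone genes higher in untreated cells and tested with TSA, 132 were higher with TSA (67.7%) and 3 lower. Of 58 lower in untreated cells, 19 were lower with TSA (32.8%) and 0 higher. The shares were 64% and 39.9% among the other CG-numbered genes, and 62.5% and 31% over all units. Across 594 head-clone genes the 2 ratios had r = 0.67 (Spearman 0.69), against 0.66 over 1686 other CG-numbered genes. These points share the spotted clones and not the arrays.

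CG10750 was called higher in both, with 1.13 and 0.54 on the TSA arrays, as were CG6614 (0.89 and 0.62), CG4983 (0.96 and 0.24), CG3330 (0.55 and 0.46), CG3492 (0.84 and 0.49) and CG5565 (0.91 and 0.88). All 12 values were above 0 and all but 1 below 1.1. The leading genes called lower in both were CG10151, CG11695, CG14956, CG4291, CG8728 and CG7069. CG7069 had -0.22, -1.04, -0.82 and -1.19 without TSA and -0.73 and -0.53 with it.

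The highest ratio with TSA was that of CG4669, at 1.05 and 0.90, with a mean of 0.98 (SE 0.11, adjusted p = 0.000179). CG1835 had 0.85 and 1.00, CG3285 had 1.02 and 0.77, and CG32450 had 1.11 and 0.65. The lowest was CG18004, at -0.79 and -0.86, with a mean of -0.83 (adjusted p = 0.000932), followed by CG7069, CG8768, CG3397, CG3104 and CG1827, with means between -0.63 and -0.59. No head-clone gene had a fitted mean of 2-fold or more with TSA, against 79 higher and 3 lower in untreated cells, though single arrays passed 1. Over all units 15 of 7089 with TSA and 515 of 8062 in untreated cells were higher by that much. Without array 3688, CG10750, CG32450, CG3397, CG7069 and CG8768 were not called (adjusted p from 0.0559 to 0.0878), nor without array 3689 CG1827, CG3104, CG7069 and CG8768 (0.0559 to 0.0655).

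The change with TSA was the ratio of Dam-Lam with over without TSA less that of Dam with over without TSA. By this measure Lam rose in 67 of 614 head-clone genes (10.9%) and fell in 142 (23.1%), against 12.4% and 17.6% of all 7089 units. Other CG-numbered genes had 195 of 1726 higher (11.3%) and 337 lower (19.5%). Of these, Lam fell in 32.7% of testis-clone, 24.1% of larval-pupal and 16% of ovary genes. The median change was -0.10 over head-clone genes and -0.05 over the other CG-numbered genes. After the arrays were scaled to the same spread, limma called 0 head-clone genes in either direction, although 33 and 93 reached an unadjusted p under 0.05; the cause was not tested. Without array 3686 the calls were 16 and 61, without array 3687 29 and 88, and without array 3690 38 and 96. Without array 3686 the head-clone median was no longer below that of the other CG-numbered genes, with a difference of 0.00839.

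As over all genes, those that fell were largely high in untreated cells. Of the 195 head-clone genes higher with Lam in untreated cells, 104 fell with TSA (53.3%) and 2 rose. Of the 58 lower in untreated cells, 20 rose (34.5%) and 0 fell. The shares were near those of other genes: 52.8% and 37.2% among the other CG-numbered genes, and 52.3% and 38.5% over all units. Across 594 head-clone genes the untreated ratio and the TSA change had r = -0.68 (Spearman -0.68), and the change of Dam alone had r = -0.34 with the same ratio. Over 1686 other CG-numbered genes the values were -0.64 and -0.35. The untreated ratio comes from arrays that do not enter the TSA change. Even so, that change is by definition Lam over Dam with TSA less the same ratio without TSA. A negative relation to the untreated ratio is therefore in part built in.

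**Figure D4:**
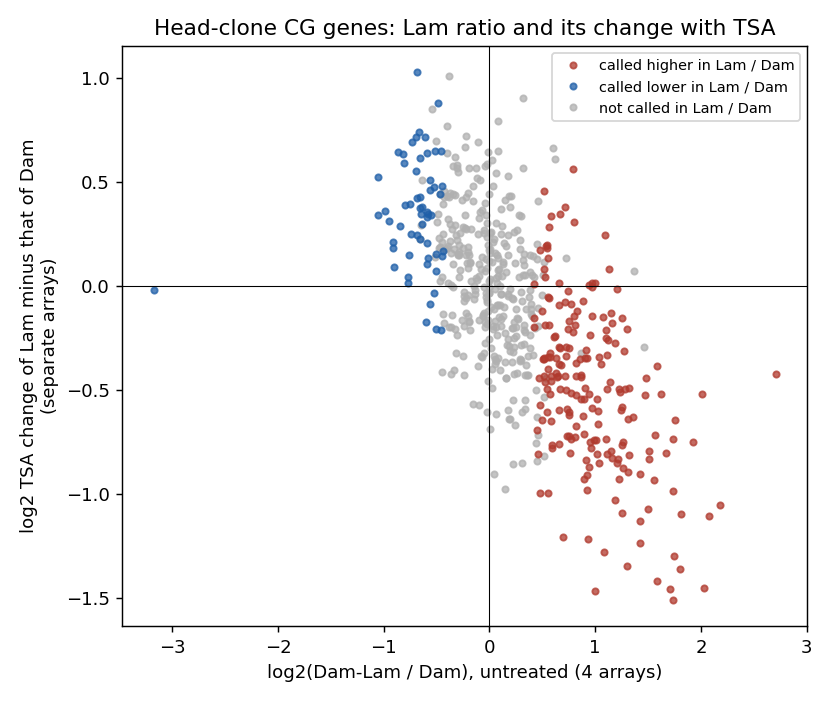
Each point is a head-clone gene: on the x axis its log2 ratio of Dam-Lam over Dam in untreated cells, on the y axis the log2 change of Dam-Lam with TSA less that of Dam. Of the red points (higher in untreated cells) 104 of 195 were called lower with TSA, and of the blue points (lower in untreated cells) 20 of 58 were called higher.

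CG10752 fell most. Dam-Lam with over without TSA was -1.46 and -1.64 on arrays 3686 and 3687, while Dam alone was 0.71 and -0.80 on arrays 3690 and 3691, and the net change was -1.51 (SE 0.28, adjusted p = 0.00285). The Dam arrays of this gene were on opposite sides of 0. CG3330 had -1.62 and -1.49 for Dam-Lam and -0.07 and -0.14 for Dam, with a net change of -1.45 (SE 0.15, adjusted p = 0.000296), and its pairs were close together. CG3092 had -1.74 and -1.66 for Dam-Lam and -0.55 and -0.14 for Dam, and CG1314 had -1.51 and -1.72 against 0.19 and -0.58. CG9284 and CG4686 fell by 1.46 and 1.46 net, with Dam at 1.32 and -0.45 in CG4686, which was not called without array 3686 (adjusted p = 0.0842).

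The largest rise was that of CG16904, with 0.08 and 0.61 for Dam-Lam and -0.76 and -0.61 for Dam, a net 1.03 (SE 0.16, adjusted p = 0.00123). Most of that value lay in the Dam arrays. In CG9630 it lay in the Lam arrays, with 1.01 and 1.18 for Dam-Lam and -0.02 and 0.19 for Dam (net 1.01). CG9630 is listed as DDX55 in the gene table, a name of the DEAD-box RNA helicases, which unwind RNA. CG6980, CG7093, CG3253 and CG3104 rose by 1.00, 0.90, 0.88 and 0.85. CG3253 carries the other name dibeta3GnT1, that of an N-acetylglucosaminyltransferase, an enzyme that adds a sugar to glycans, and its call was lost without array 3686, 3687 or 3690 (adjusted p from 0.0566 to 0.119).

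Lam delta CaaX changed with TSA in 199 of 614 head-clone genes, higher in 103 (16.8%) and lower in 96 (15.6%) after subtraction of Dam, against 16.2% and 20.4% of all units. Among the other CG-numbered genes 357 of 1726 were higher (20.7%) and 321 lower (18.6%). The median change was 0.05 in both sets of genes. Scaled to the same spread, the arrays gave 24 and 33 calls among head-clone genes. Without array 3692 there were 37 and 49, and without array 3693 46 and 45.

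Here too the change ran against the untreated ratio, which is in part built in, since the change by definition subtracts that ratio. Of 96 head-clone genes higher with Lam delta CaaX in untreated cells, 43 fell with TSA (44.8%) and 0 rose, and of 93 lower ones 36 rose (38.7%) and 1 fell. Among the other CG-numbered genes 49.5% of the higher fell and 39.7% of the lower rose, and over all units 50.2% and 38.1%. The ratios of Lam delta CaaX over Dam without and with TSA had r = 0.15 over 591 head-clone genes. The value was 0.12 over 1679 other CG-numbered genes and 0.12 over 6847 units. The 2 arrays with TSA had r = 0.44 with each other over all units. The 2 arrays of Dam-Lam delta CaaX with over without TSA had r = 0.90. The parts of spread between arrays and of a change with TSA in the low r were not tested. CG10433 fell most, at -1.87 and -1.74 for Dam-Lam delta CaaX and -0.33 and -0.46 for Dam, a net -1.41 (SE 0.14, adjusted p = 0.000133). CG8501 had -2.01 and -1.69 against -0.59 and -0.45 for Dam, and CG11808, CG33307, CG9547 and CG17472 fell by 1.20 to 1.29. Both arrays of a pair were on the same side of 0 in each of these genes but for the Dam arrays of CG33307.

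CG16904 rose most, by 1.29, with 0.51 and 0.70 for Dam-Lam delta CaaX and the same Dam values as above. CG3104 rose by 1.12, CG7093 by 1.08, CG32278 by 1.04, CG8401 by 1.04 and CG43755 by 0.93. CG3104, CG16904 and CG7093 are also among the leading rises for Lam, and the Dam arrays are shared by both results.

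The change of Lam with TSA was also set against that of Lam delta CaaX, a comparison added after the data were seen. Lam exceeded Lam delta CaaX in 84 of 614 head-clone genes (13.7%) and was below it in 168 (27.4%), against 18.9% and 19.1% of all units. The other CG-numbered genes had 272 of 1726 higher (15.8%) and 436 lower (25.3%). CG7054 had 0.27 and 0.19 with Lam and -1.10 and -0.86 with Lam delta CaaX, a difference of 1.21 (SE 0.14, adjusted p = 0.000152). CG6550, which the gene table also calls CDKAL1-like, had 0.94 and 0.96 with Lam and -0.07 and 0.17 with Lam delta CaaX. The arrays of the 2 proteins lay apart in both genes, which follows largely from naming genes by a large called difference.

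On the lower side, CG3330 had -1.62 and -1.49 with Lam and 0.04 and -0.17 with Lam delta CaaX, a difference of -1.49 (SE 0.15). CG1791 had -1.51 and -1.75 with Lam and 0.01 and -0.31 with Lam delta CaaX, and CG11404 had -1.26 and -1.36 against -0.07 and 0.19. CG3330, CG1791 and CG11404 had also been called higher with Lam in untreated cells. CG1552 had the lowest fitted difference, -1.88, with -0.86 and -1.03 for Lam, but its Lam delta CaaX arrays were at 2.30 and -0.44, and it was not called without array 3686 or 3692 (adjusted p of 0.115 and 0.105). Without array 3692 the counts were 24 and 85, without array 3693 17 and 101, without array 3686 20 and 73, and without array 3687 30 and 119. After scaling to the same spread they were 2 and 10.

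For Dam alone, TSA raised 97 of 614 head-clone genes (15.8%) and lowered 101 (16.4%), close to 15.6% and 16% of all units. The other CG-numbered genes had 278 of 1726 higher and 316 lower. CG12375 rose to 1.43 and 0.90 on arrays 3690 and 3691 (mean 1.16, SE 0.11, adjusted p = 4.44e-05) and CG6028 to 1.03 and 0.80. CG13325 was at -0.89 and -0.95, CG31248 at -0.96 and -0.77 and CG3104 at -0.77 and -0.93, all called lower. CG13625, CG32099, CG8708 and CG11019 rose by 0.71 to 0.84, and CG13124, CG3829 and CG6287 fell by 0.78 to 0.83. CG8708 bears a galactosyltransferase name like that of CG9109. Without array 3690 the counts were 34 and 36, and CG31248 and CG32099 were not called (adjusted p of 0.345 and 0.0894).

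With TSA, Lam delta CaaX over Dam was called higher in 42 head-clone genes (6.84%) and lower in 37 (6.03%), near the 5.29% and 7.19% of all units. CG14969 had 0.70 and 0.67 on arrays 3694 and 3695 and CG6980 0.58 and 0.69, both higher. CG9162, CG31445, CG15096 and CG10561 were the other leading genes, with means of 0.69, 0.59, 0.57 and 0.57. CG3104 was lowest, with -1.40 and -1.15 (mean -1.28, SE 0.10, adjusted p = 6.38e-05), so it was below Dam with this protein both without and with TSA. CG31248 had -0.24 and -2.06, and CG18004 had -0.72 and -1.11. CG8768, CG33307 and CG10433 were called lower with means between -0.80 and -0.64. Scaling the arrays to the same spread gave 111 and 62 calls. Without array 3694 there were 15 and 9, without array 3690 or 3691 77 higher, and without array 3695 0 higher and 3 lower by limma, with 49 and 55 at an unadjusted p under 0.05. CG3104 kept its call without either array, while without array 3695 the other 11 genes named here did not, nor CG14969, CG9162 and CG10561 without array 3694 (adjusted p from 0.0638 to 0.245).

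The mRNA level of the head-clone genes, as mRNA over genomic DNA in untreated cells, was low. In such bulk RNA, fewer cells with a transcript and less of it per cell cannot be told apart. The median of 613 measured genes was -0.56 on array 3458 and -1.23 on array 3459, against -0.47 and -0.54 for 2080 other CG-numbered genes. The mean of both arrays was below 0 in 426 (69.5%) and among the lowest 25% of all units in 233 (38%), against 61.2% and 32.9% of the other CG-numbered genes. The highest 25% held 62 (10.1%), against 17.2%. Genes with a given name had a median of 0.22, and the testis-clone genes -1.38. The low level was that of GH clones, with a median of -0.99 over 589 genes and 71.1% below 0, whereas the 25 genes with an HL row had a median of 0.57 and 28% below 0.

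The gap to the other CG-numbered genes differed between the 2 arrays, at -0.09 on array 3458 and -0.69 on array 3459. In the lowest tertile of mRNA level, head-clone genes were lower on array 3459 than on array 3458 in 93.4% of 316 genes, with a median difference of -0.93. The named genes of head clones in that tertile had -0.91 (331 genes) and the other CG-numbered genes -0.39 (896 genes). In the middle and highest tertiles the head-clone median difference was -0.05 and 0.18. Array 3459 carries the mRNA in Cy5 and array 3458 in Cy3, so dye and array cannot be told apart, and their part in the low level was not tested.

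The highest levels were those of CG43901 (3.57 and 3.83 on arrays 3458 and 3459), CG3494 (3.39 and 3.76) and CG6180 (2.63 and 3.16). CG2493 (2.50 and 3.10) is also listed as Prcp, the name of a lysosomal carboxypeptidase, and CG8036 (2.65 and 2.91) as Transk, transketolase of the pentose phosphate pathway. CG10799 had 2.62 and 2.68. All 6 were above 2.4 on both arrays. The lowest were CG7058 (-3.99 and -3.82), CG10993 (-2.91 and -3.31), CG9759 (-3.02 and -2.92), CG18281 (-2.10 and -3.51), CG7560 (-2.50 and -3.04) and CG31872 (-1.98 and -3.40). CG31872 was also among the 10 highest Lam ratios.

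Head-clone genes high with Lam had low mRNA levels, as had other genes high with Lam. The 199 called higher in untreated cells had a median mRNA level of -1.44, and 174 of them were below 0 (87.4%), against a median of -1.57 and 87.4% for the other CG-numbered genes called higher, and -1.39 and 80.1% over all units. The 60 called lower had -0.27 and the 353 not called -0.62. For Lam delta CaaX the order was the other way: 94 genes called higher had a median of 0.20 and 91 called lower -1.40. Across 612 head-clone genes the Lam ratio and the mRNA level had r = -0.35 (Spearman -0.39), and across 589 the Lam delta CaaX ratio and the mRNA level 0.26 (0.31). The other CG-numbered genes had -0.40 and 0.24. With TSA the Lam ratio had r = -0.48 with the mRNA level of untreated cells.

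The Lam calls were also set out by mRNA level. In the lowest tertile of all units, below -0.86, 147 of 316 head-clone genes were higher (46.5%), against 359 of 896 other CG-numbered genes (40.1%). In the middle tertile the counts were 40 of 206 (19.4%) and 73 of 686 (10.6%), and in the highest, above 0.74, 12 of 90 (13.3%) and 35 of 498 (7.03%). The median Lam ratios were 0.45, -0.01 and -0.05 over head-clone genes and 0.37, -0.15 and -0.18 over the others, from the lowest to the highest tertile. With Lam delta CaaX the shares of head-clone genes called higher were 7.17%, 20.2% and 37.1%, against 6.98%, 14.1% and 18.2% of the other CG-numbered genes and 7.46%, 16.8% and 22.5% of all units. For Lam, all units had 40.1%, 14% and 6.81%. These shares were not tested.

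**Figure D5:**
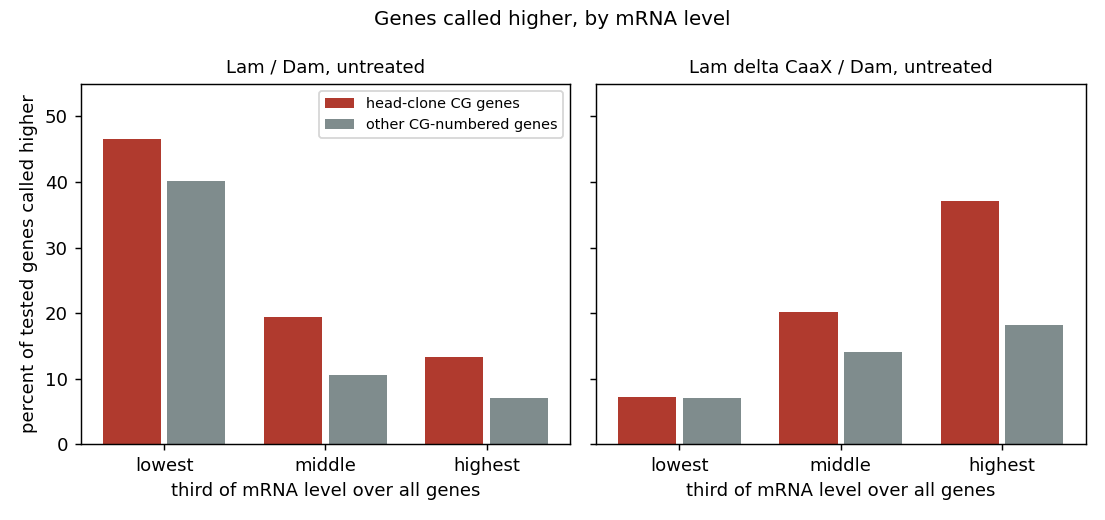
Percent of tested genes called higher in Lam over Dam (left) and Lam delta CaaX over Dam (right) in each tertile of mRNA level, for head-clone CG genes (red, left bars) and other CG-numbered genes (grey, right bars). The Lam shares of head-clone genes are 46.5%, 19.4% and 13.3% from the lowest to the highest tertile, and the Lam delta CaaX shares 7.17%, 20.2% and 37.1%.

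The Lam ratio of head-clone genes went with that of their neighbours in the genome as it did for other genes. For 580 of them a measured gene on each side could be placed in the reference gene order. The mean of the 2 neighbours had r = 0.59 with the gene's own ratio (Spearman 0.60), against 0.60 over 2006 other CG-numbered genes. Of 186 head-clone genes called higher, 130 had a neighbour called higher (69.9%), and the median of the neighbours was 0.52. Both neighbours were higher in 47 (25.3%), against 24.3% of all units called higher. Of 58 called lower, 30 had a lower neighbour (51.7%), and the median was -0.29. Of the other CG-numbered genes 72.4% of the higher had a higher neighbour and 49.8% of the lower a lower one, and of all units 69.1% and 52.3%.

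Some head-clone genes are adjacent in the order of measured genes, though unmeasured genes may lie between them. There were 59 runs of 2 or more such head-clone genes, with 126 genes. In 15 runs every gene was called higher and in 0 every gene lower. Singly, 32.5% of head-clone genes were called higher and 9.8% lower, against 20.3% and 14.9% of all units. Runs of other genes are not given here, so the run counts have no background. The longest run was CG31705, CG31706, CG6614 and CG4983, with Lam ratios of 0.11, 0.83, 2.18 and 2.08, of which the last 3 were called higher. CG1791 and CG1889 had 1.42 and 1.81, CG31343 and CG42335 both 1.42, CG17564 and CG10750 1.31 and 2.71, and CG1552, CG1545 and CG1537 0.58, 1.08 and 0.94. Other neighbours differed: CG10947 was called higher at 0.80 and CG10949, the measured gene beside it in the order, lower at -0.69.

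Ecdysone changed few head-clone transcripts. Of 614 tested, 15 rose (2.44%) and 4 fell (0.651%), against 2.17% and 1.61% of all units. The other CG-numbered genes had 26 of 1726 higher (1.51%) and 30 lower (1.74%). Without array 3427 the counts were 26 and 27, without array 3426 5 and 2, without array 3450 7 and 2, and without array 3451 4 and 2. Array 3427 had correlations of -0.13 to 0.29 with the other arrays of the group.

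CG14629 rose most, with 3.46, 2.14, 3.73, 4.11 and 3.55 on arrays 3426, 3427, 3450, 3451 and 3452 and a mean of 3.42 (SE 0.25, adjusted p = 0.0002). CG6287 had 3.64, 1.80, 3.69, 3.90 and 3.14 (mean 3.26), and CG31778 had 2.48, 0.92, 2.95, 2.47 and 2.90 (mean 2.40). All 15 values were above 0, as the choice of named genes required, and array 3427 was the lowest in each gene. CG11509, CG3625 and CG13784 rose by 1.53, 1.37 and 1.08, and CG11509 and CG13784 were not called without array 3426 (adjusted p of 0.205 and 0.104), 3450 or 3451, nor CG13784 without array 3452 (0.0806). CG10512 fell, with -1.83, -0.43, -1.98, -2.10 and -1.70 (mean -1.64, adjusted p = 0.00453). CG7720, listed also as dSLC5A1, a name of the sodium-coupled solute carriers, had -1.59, -0.84, -1.40, -1.75 and -1.17 (mean -1.36). Of the 15 genes that rose, 7 had been called higher with Lam in untreated cells and 0 lower. These 7 are 3.59% of the 195 head-clone genes higher with Lam, near the 3.27% that rose among all units higher with Lam.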

How the data were processed

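Log2 ratios of 35 two-channel cDNA arrays were used as the authors deposited them. Limma was used by the authors, per the submitters' processing notes; its version and its background and normalization settings are not stated there. The table has 9006 rows, of which 7843 name 1 gene in the platform's gene table, 246 several and 917 none. Each array was centred on its median and rows of a gene were averaged, which gave 8421 units. Fits used limma 3.58.1 in R 4.3.3 (lmFit and eBayes with a dye term per unit, two-sided, Benjamini-Hochberg over all units tested). A unit needed values on 75% of the arrays of its fit and was called at an adjusted p under 0.05. All 10 TSA arrays entered a single model of 6 DNA samples. The mRNA level is a mean of 2 arrays with no test. The number of arrays limits the precision.

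The text names, per comparison, up to 10 (Lam, Lam delta CaaX) or 6 (others) called genes in each direction by size. Also named are the 6 highest and lowest mRNA levels, and up to 4 or 6 genes of each shared call. In some comparisons, genes named by size had to have the same sign on every array with a value. These were both proteins over Dam without and with TSA, Dam with over without TSA, and the ecdysone change. The members, lists and rules were chosen with earlier results of these data known. Untreated Lam arrays of the ecdysone experiment correlated with each other at -0.55, -0.48 and 0.88, and those with ecdysone at -0.64, -0.55 and 0.71, so they served as alternatives only. The fits were tested on simulated data.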

Additional observations from a re-analysis of the deposited data

Results flagged for a closer look

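The 62 sets of array values examined were those of named genes, chosen for large ratios, which a single far array can raise. The rate of about 5% that chance gives can therefore not be set against them. In 10 of the 62 an array lay farther from the others than Dixon's 95% critical value allows. Of these, 6 were on Lam array 2945: CG10750 at 5.69, CG3492 at 4.40, CG7342 at 3.82, CG5565 at 3.27, CG7084 at 3.06 and CG18628 at -1.96 (log2), each farther from 0 than the other 3 arrays of its gene. CG10151 on array 2907 was flagged at -0.785, nearer to 0 than the rest. CG10512 was flagged with Lam delta CaaX on array 2966 at 1.12 and with ecdysone on mRNA array 3427 at -0.433, and CG31778 on the same mRNA array at 0.922. The TSA change of Lam differed from that of Lam delta CaaX by the test of the difference itself in 84 head-clone genes upward and 168 downward.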

How the results depend on the processing

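No paired analysis was possible because each array has its own number and the groups share no replicate numbers. No called gene that the text names changed sign under the alternatives run. Some differences between the medians of head-clone and other CG-numbered genes did change sign. For the TSA change of Lam this was without array 3686 (0.00839, against -0.0516 with all arrays). For that of Lam delta CaaX it was without array 3692 (-0.0437) or 3690 (-0.00347, against 0.00637), and for Dam without array 3691 (-0.00278, against 0.0286). On single arrays with over without TSA, with Dam not subtracted, such differences had SDs of 0.039 for Lam and 0.083 for Lam delta CaaX. For Dam the SD was 0.049 (n = 2 arrays each). All counts here are head-clone genes called higher and then lower. At an adjusted p under 0.01 there were 92 and 7 for Lam over Dam, 33 and 28 for Lam delta CaaX over Dam, and 19 lower for Lam minus Lam delta CaaX. In the TSA experiment the same limit gave 27 and 78 for the Lam change, 38 and 52 for the Lam delta CaaX change, 39 and 48 for Dam alone, 120 and 19 for Lam over Dam, 12 and 6 for Lam delta CaaX over Dam, and 23 and 103 for the difference of the 2 changes. It left 6 and 2 for ecdysone. With a log2 size of at least 0.5 there were 61 and 47 for Lam delta CaaX over Dam, 31 and 42 for the Dam change, 88 and 12 for Lam over Dam with TSA, 12 and 11 for Lam delta CaaX over Dam with TSA, and 44 higher for the difference of changes. Fewer genes can pass these stricter limits by construction. With no dye term there were 58 higher for the Lam delta CaaX change, 62 lower for Dam, 35 lower for Lam over Dam with TSA, 23 and 23 for Lam delta CaaX over Dam with TSA, and 49 higher for the difference. With arrays scaled to the same spread, limma called 0 and 0 for the Lam change (33 and 93 at an unadjusted p under 0.05), 24 and 33 for the Lam delta CaaX change, 111 and 62 for Lam delta CaaX over Dam with TSA, and 2 and 10 for the difference. The cause was not tested.

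When the ecdysone experiment's 3 untreated Lam arrays joined the fit as deposited, limma called 0 and 0 (8 and 9 unadjusted), and the median of head-clone genes exceeded that of the other CG-numbered genes by 0.0659. With their Cy3 arrays turned it called 0 and 0 (8 and 1 unadjusted), with a difference of 0.0598. With arrays 3441 and 3443 turned, a choice made after their correlations were seen, it called 224 and 88.

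Leaving out each array in turn gave ranges of 0 to 240 and 0 to 104 for Lam over Dam, where 0 came without array 2921 (162 and 41 unadjusted), and of 0.102 to 0.172 for its difference of medians. They were 36 to 119 and 27 to 142 for Lam delta CaaX over Dam (0.0363 to 0.0662), and 139 to 178 and 35 to 62 for Lam minus Lam delta CaaX (0.0558 to 0.0998). For the TSA changes they were 16 to 81 and 61 to 143 with Lam (-0.0909 to 0.00839), 37 to 111 and 45 to 102 with Lam delta CaaX (-0.0437 to 0.0357), and 34 to 106 and 36 to 110 with Dam (-0.00278 to 0.0286). For the ratios with TSA they were 41 to 220 and 3 to 69 with Lam (0.0969 to 0.109), and 0 to 77 and 3 to 49 with Lam delta CaaX (0.0253 to 0.0545). The difference of the 2 changes ranged over 17 to 105 and 73 to 194 (-0.103 to -0.0688). Ecdysone ranged over 4 to 26 and 2 to 27 (0.0220 to 0.0448). The mRNA level difference ranged from -0.689 on array 3459 alone to -0.0940 on array 3458 alone. CG10750 was not called without array 2907, at 2.77, nor without array 2921, at 2.65.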
